A study of Danio rerio with 2 samples.

Results

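The natriuretic peptide genes nppa (ENSDARG00000052960), nppb (ENSDARG00000052958) and nppal (ENSDARG00000052948) were followed through 2 cryoinjured zebrafish ventricles. They were found by zebrafish symbol, ignoring case, and are 3 of 18139 Ensembl gene IDs with a row in either count table; all 3 have a row in both tables, as do 14452 IDs in all. In the RefSeq gene table of assembly GRCz12tu, the 3 genes are neighbours on 1 chromosome in the order nppal, nppb, nppa, with clcn6 beyond nppa. The genome build behind the counts is not given in the sources used here, so no coordinates are quoted.

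Natriuretic peptides are hormones cut from precursor proteins that heart muscle cells make. nppa encodes the precursor of atrial natriuretic peptide and nppb that of B-type natriuretic peptide; nppal is named for its likeness to nppa. The mature peptides bind guanylyl cyclase receptors on target cells and raise cyclic GMP, which in mammals relaxes vessels and promotes salt excretion by the kidney. Both nppa and nppb are used as markers of heart muscle under load or next to damaged tissue, in mammals and in zebrafish.

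1 heart came from an adult WT zebrafish at 7 days post injury (dpi), and the heart it is set against from an adult WT zebrafish at 3 dpi. WT, as the sample titles have it, was taken as wild type. Each ventricle had been frozen on part of its surface (cryoinjury), a lesion after which adult zebrafish regrow heart muscle. Slices of 12 µm were taken in turn, starting in the wound and ending in uninjured muscle far from it, and each was sequenced as its own library. There was 1 heart per day, so the day and the individual heart cannot be told apart. Sections of 1 heart are not replicates of a condition, and no test was made. Intervals are exact 95% intervals of the counts and cover counting error only, and no SD over hearts can be given.

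The 7 dpi heart had 38 sections, of which 24 were kept with 20832 to 813848 gene counts each; the 3 dpi heart had 40, of which 35 were kept with 39495 to 302404. Section 34 alone held 25.5% of the kept counts at 7 dpi. Levels are counts per 1000000 gene counts of the section or domain (CPM). A division of each heart into 3 contiguous domains, made without the 3 genes and without the listed marker genes, put sections 1 to 7 (injury), 8 to 21 (middle) and 22 to 34 (remote) together at 7 dpi, and sections 1 to 10, 11 to 20 and 21 to 40 at 3 dpi. The domains hold different amounts of muscle in the 2 hearts. Summed over the contractile marker list, the section medians at 7 dpi were 359 CPM in the injury domain, 1282 in the middle and 29599 in the remote domain, and at 3 dpi they were 17508, 49069 and 65073 CPM. The list matched 19 IDs at 7 dpi and 21 at 3 dpi, and each heart was summed over its own IDs. The sums of the 2 hearts are thus not strictly alike, and the effect of this was not tested. In the 7 dpi injury domain, 10 of the 19 contractile IDs were at 0, among them the troponins TNNT2, TNNI1 and TNNC1. Because tissue slices were sequenced in bulk, fewer muscle cells and less RNA per muscle cell cannot be told apart. To set the peptide genes against muscle content, their counts were also divided by those of myl7 (MYL7 in the gene name table, ENSDARG00000019096), the regulatory myosin light chain of zebrafish heart muscle, in sections with at least 20 myl7 counts.

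nppa followed the heart muscle at 7 dpi. It had 0 counts in all 5 kept injury sections, 61 counts (55.8 CPM) in the middle domain and 2685 counts (1412 CPM) in the remote domain. In the middle domain, 6 of 12 sections had none, and the highest was section 20 at 156 CPM. Outward from there, nppa stood at 303 CPM in section 22, 538 in section 23, 880 in section 26, 866 in section 30, 2141 in section 31, 2985 in section 32 and 1295 in section 34. The 7 remote sections all lay above the 12 middle ones, a separation that 1.15% of 4416 genes showed in that direction. The middle domain was 25.3-fold lower than the remote one (19.6 to 33.2), and the injury domain, taken at a floor of 3 counts over the domain, was at least 93.9-fold lower; 13.6% of genes in the middle and 31.7% of 3258 genes in the injury domain were at least 2-fold lower than in remote tissue. Section 32 alone held 44.2% of the remote nppa counts, and the counts spread over these 7 sections far more than counting error gives. Without section 34 the log2 ratio of middle to remote tissue was -5.77 in place of -4.64, and with all sections above 5% of the upper-quartile depth it was -1.02, with domains drawn anew in both cases.

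At 3 dpi nppa was already high close to the injury. Section 1 had 1 count of nppa (25.02 CPM), whereas injury sections 7, 8, 9 and 10 held 1271, 852, 1815 and 658 CPM. The 10 middle sections ran from 1308 to 2698 CPM with a median of 2092, and the 20 remote sections from 1315 to 3360 CPM with a median of 1905. The middle range thus lay almost wholly inside the remote one. Summed by domain, nppa stood at 960, 2093 and 2195 CPM in injury, middle and remote tissue. The middle-to-remote ratio was 0.953 (0.906 to 1.00), and the injury domain was 2.29-fold lower than the remote one (2.02 to 2.60), as 17.6% of 3709 genes were by at least 2-fold. The size of that ratio was loose: its log2 value of -1.19 was -3.59 with a depth limit of 5% (domains drawn anew), -1.97 with median-of-ratios scaling and -0.37 with 3 domains of equal section number. The highest single section was 37, at the remote end, and the highest running level over 5 kept sections was centred on section 19 at 2492 CPM. The place of that plateau is loose, since a running level over 3 sections is highest around section 38.

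nppb was the gene whose level marked a place along the 3 dpi heart. It stood at 894, 775, 908 and 698 CPM in injury sections 7 to 10, reached 1643 CPM in section 14 and 1818 CPM in section 16, and stood at 1302 CPM in section 18, 1026 in section 19 and 509 in section 20. The 20 remote sections held 203 to 699 CPM with a median of 408, and the 10 middle sections 509 to 1818 CPM with a median of 1152. The groups overlapped through section 20 of the middle domain. At 509 CPM it lay under the adjoining remote section 21 (699 CPM) and just under remote sections 33 and 36 (513 and 519 CPM). Summed, nppb stood at 695 CPM in the injury domain (184 counts), 1262 in the middle (1207 counts) and 406 in the remote domain (1094 counts). The middle domain was 3.11-fold higher than the remote one (2.86 to 3.37); 15.5% of 4402 genes were at least 2-fold higher there and 2.98% at least 2-fold lower, and 3.02% had a higher ratio than nppb. Scaling by median of ratios, which lowers every CPM ratio between these domains by the same factor, turned the 684 higher and 131 lower genes into 219 and 473 and left nppb at a log2 ratio of 1.26 in place of 1.63. With 3 domains of equal section number the nppb log2 ratio was 0.54. The injury domain was 1.71-fold higher than the remote one (1.46 to 2.002), but this direction turned with a lower depth limit for sections (log2 ratio -1.49, domains drawn anew) and was lost with median-of-ratios scaling (-0.0038), where the main value was 0.77. Other tissue changed along the same sections: the summed contractile markers were lower in the middle than in the remote domain, and the summed leukocyte markers had a median of 2466 CPM in the middle and 875 CPM in the remote sections. The part of these lists in the nppb level was not tested.

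Among kept sections, the nppb profile at 7 dpi had another place and a lower top. There was 1 nppb count in the injury domain (section 7), 78 counts (71.4 CPM) in the middle and 499 counts (262 CPM) in the remote domain. Along the axis nppb first exceeded 50 CPM in section 18 at 53.6 CPM, and stood at 132 CPM in section 19, 230 in section 20, 180 in section 21, 259 in section 22, 371 in section 23, 402 in section 26 and 475 in section 30. Sections 31, 32 and 34, which hold the most muscle, had 197, 163 and 285 CPM. The highest kept section was 30, and the highest running level over 5 kept sections was centred on section 26. Sections 24, 25 and 27 to 29, left out for low totals, held few counts but mostly higher nppb levels. Section 24 had 2410 CPM (782 to 5623), section 25 had 1466 (820 to 2417) and section 29 had 1039 (537 to 1815). Sections 27 and 28 had 622 CPM (128 to 1818) and 288 CPM (34.9 to 1042). The lower top at 7 dpi thus holds for the kept sections only. The middle domain was 3.68-fold lower than the remote one (2.89 to 4.73), the opposite direction to 3 dpi, and nppb was among the 13.6% of genes lower there by at least 2-fold; 14% were higher. This ratio depended on the sections kept: its log2 value was -1.86, with a range of -5.08 to 1.16 over the alternatives, -3.86 without section 34 and positive with all sections above 5% of the upper-quartile depth, again with domains drawn anew. Endothelial markers moved in the same sections, with summed medians of 95.5 CPM in the middle and 1094 CPM in the remote domain at 7 dpi, against 295 and 236 CPM at 3 dpi; their part was not tested.

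**Figure D1:**
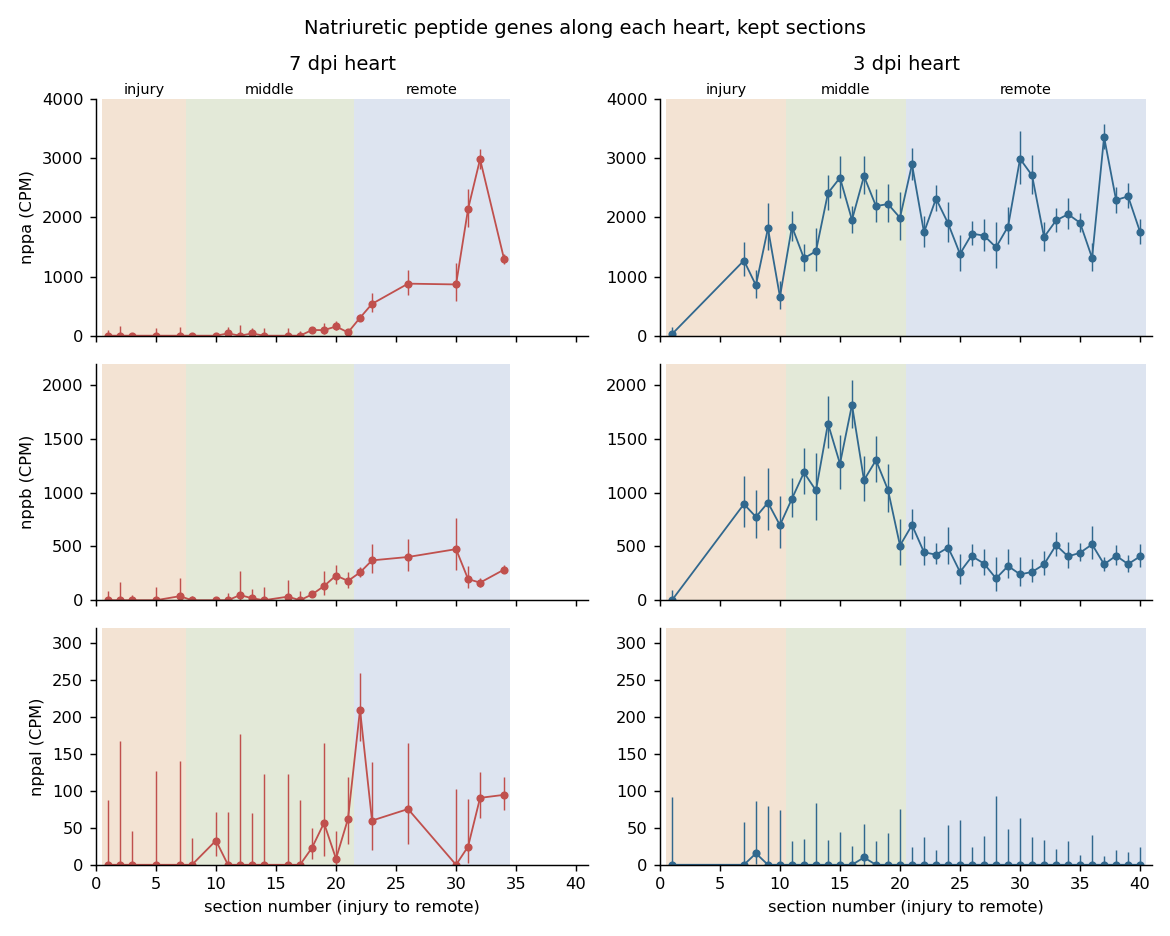
Level of nppa, nppb and nppal (rows; CPM on a linear axis) in each kept section, numbered from the injury to the remote side, in the 7 dpi heart (left) and the 3 dpi heart (right); points are single sections, bars exact 95% Poisson intervals, shading the injury, middle and remote domains. At 3 dpi nppb is highest in section 16 at 1818 CPM while nppa stays high to the remote end; at 7 dpi all 3 genes lie mostly in sections 18 to 34, and nppal is near 0 throughout the 3 dpi heart.

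Set against myl7, nppb was highest on the injury-facing side of the muscle among the kept sections of both hearts. At 7 dpi the 10 sections with enough myl7 had, from section 18 outward, 45.2 nppb counts per 100 myl7 counts in section 18, 71.8 in section 20, 113 in section 21, 39.6 in section 22, 30.7 in section 23, 27.6 in section 26, 15.7 in section 30, 3.74 in section 31, 3.73 in section 32 and 5.48 in section 34. The 3 middle sections thus all lay above the 7 kept remote ones, and the domain ratio was 9.42 (6.87 to 12.8). Section 25, left out for its low total, had 65.2 (31.6 to 130) on 23 myl7 counts. It lay above section 18, so the separation holds for kept sections only. That separation says little about nppb alone, since 57.3% of genes showed it and 98.5% were at least 2-fold higher per myl7 in the middle: myl7 itself stood at 106 CPM in the middle and 3675 CPM in the remote domain. The nppb ratio was low among genes, at 3.24 on the log2 scale beside an all-gene median of 5.25, and 94.3% of genes had a higher one.

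At 3 dpi, nppb per 100 myl7 counts was 27.7 to 55.6 in injury sections 7 to 10, 6.51 to 40.6 in the 10 middle sections and 1.54 to 5.77 in the 20 remote sections. No middle section reached down into the remote range, a separation that 0.977% of genes showed. By domain the values were 35.9, 19.6 and 2.95 per 100 myl7 counts, so the middle was 6.67-fold (6.11 to 7.28) and the injury domain 12.2-fold (10.1 to 14.6) above the remote domain, beside 71.4% and 92.4% of genes that were at least 2-fold higher per myl7. A higher ratio than nppb was shown by 3.02% of genes for the middle and by 39.7% for the injury domain. The lowest middle value was section 20, and remote sections 21 and 33 were the highest beyond it at 5.48 and 5.77. With cmlc1, a second cardiac myosin light chain gene, in place of myl7 the log2 ratio of middle to remote tissue was 2.38, and with the summed contractile list it was 2.25, against 2.73 with myl7. With 3 domains of equal section number it was 1.08 per myl7. The highest section was 10 at 3 dpi and 21 at 7 dpi, in each case among the first sections in which myl7 was plentiful enough to divide by.

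nppa per myl7 had a shallower gradient. At 3 dpi it was 37.7 to 94.4 per 100 myl7 counts in injury sections 7 to 10, 21.8 to 56.5 in the middle and 8.12 to 22.7 in the remote sections; section 16 of the middle domain lay below section 21 and just below sections 33 and 34 of the remote one, so the domains overlapped. The domain values were 49.5, 32.6 and 15.9, and the middle-to-remote ratio was 2.05 (1.93 to 2.17), under the all-gene median, which on the log2 scale was 1.42 beside 1.03 for nppa. With cmlc1 that log2 ratio was 0.68, with the contractile list 0.55 and with 3 domains of equal section number 0.39. At 7 dpi nppa stood between 24.9 and 80.6 per 100 myl7 counts in all 10 kept sections, with 80.6 in section 18, 48.7 in section 20, 34.8 in section 21, 46.3 in section 22, 44.6 in section 23, 60.3 in section 26, 28.7 in section 30, 40.6 in section 31, 68.4 in section 32 and 24.9 in section 34. That range holds for kept sections only. Left-out section 33 had 9.71 (4.52 to 18.6) on 103 myl7 counts, and left-out section 37 had 16.4 (7.11 to 33.4) on 55. Left-out sections 25, 29, 36 and 38 lay inside the range, at 39.1, 45.2, 57.4 and 46.2. Among the kept sections, middle and remote ones were mixed in level, and the domain ratio of 1.37 had an interval (0.984 to 1.89) that includes equality. Its log2 value of 0.46 was -0.25 with the contractile list in place of myl7.

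**Figure D2:**
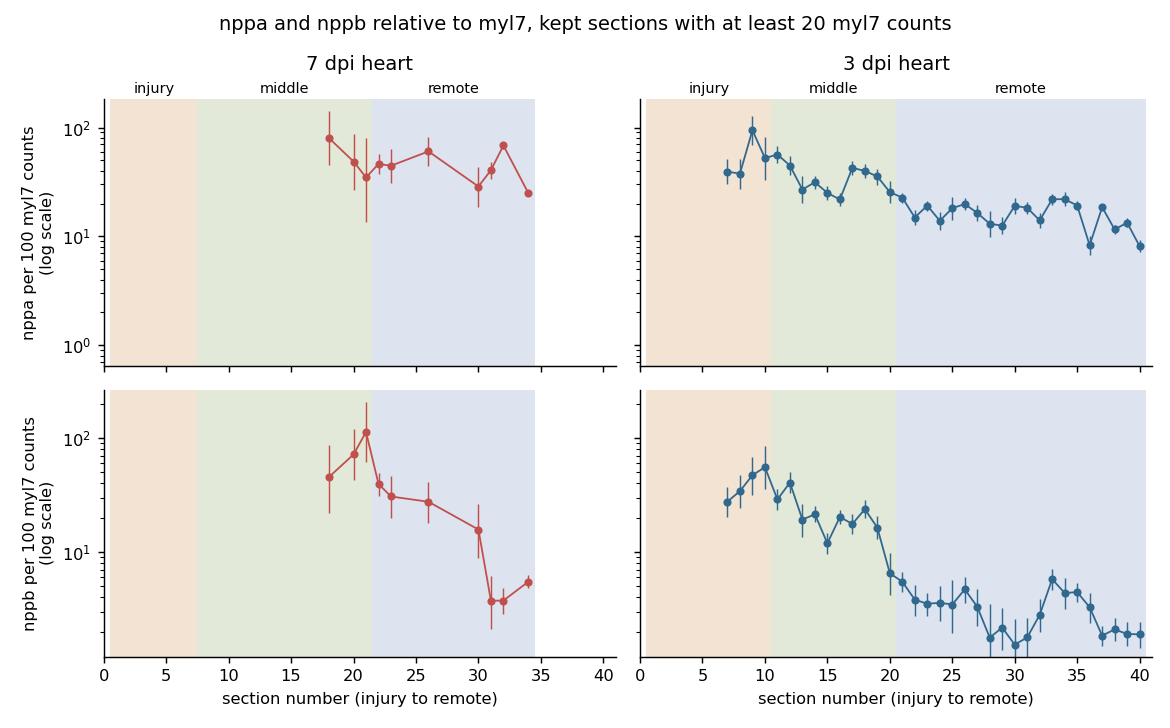
nppa (top) and nppb (bottom) counts per 100 myl7 counts (log axis) in kept sections with at least 20 myl7 counts, 7 dpi heart left and 3 dpi heart right; bars are exact 95% intervals from the binomial share of the pair. nppb runs from 113 in section 21 to 3.73 in section 32 at 7 dpi and from 55.6 in section 10 to 1.54 in section 30 at 3 dpi, while nppa spans 24.9 to 80.6 and 8.12 to 94.4.

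The share of nppb in the summed counts of nppa and nppb does not need a muscle gene at all. It is used here to compare sections, not to rank the genes, because counts were not corrected for transcript length. At 7 dpi nppb made up 56.1% (47.5 to 64.5) of the pair in the middle domain and 15.7% (14.4 to 16.98) in the remote domain. At 3 dpi it made up 42.0% (37.3 to 46.8) in the injury domain, 37.6% (35.9 to 39.3) in the middle and 15.6% (14.8 to 16.5) in the remote domain. By section, the 3 dpi share was 33.3% to 51.5% in sections 7 to 10 and 20.3% to 48.2% in sections 11 to 20. It was then 7.4% to 28.3% in sections 21 to 40, with section 36 at 28.3% as the high point of the remote sections. At 7 dpi the share was 35.9% in section 18, 58.3% in section 19, 59.6% in section 20, 76.5% in section 21, 46.1% in section 22, 40.8% in section 23, 31.4% in section 26, 35.4% in section 30, 8.4% in section 31, 5.2% in section 32 and 18.04% in section 34. By domain, the share was higher in middle than in remote tissue in both hearts. Single 7 dpi sections did not all follow this, since section 18 lay under remote sections 22 and 23. Sections 24, 25, 27, 28 and 29, left out for low totals, had 71.4%, 62.5%, 100%, 28.6% and 38.7%, on few counts. Left-out section 33, between sections 32 and 34, had 41.2% (18.4 to 67.1). Left-out sections 35 to 38 had 33.3%, 9.6%, 18.2% and 7.7%. The 7 dpi share of the middle domain moved with the depth limit (38.3% with a 5% limit, 45.2% with a 40% limit).

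**Figure D3:**
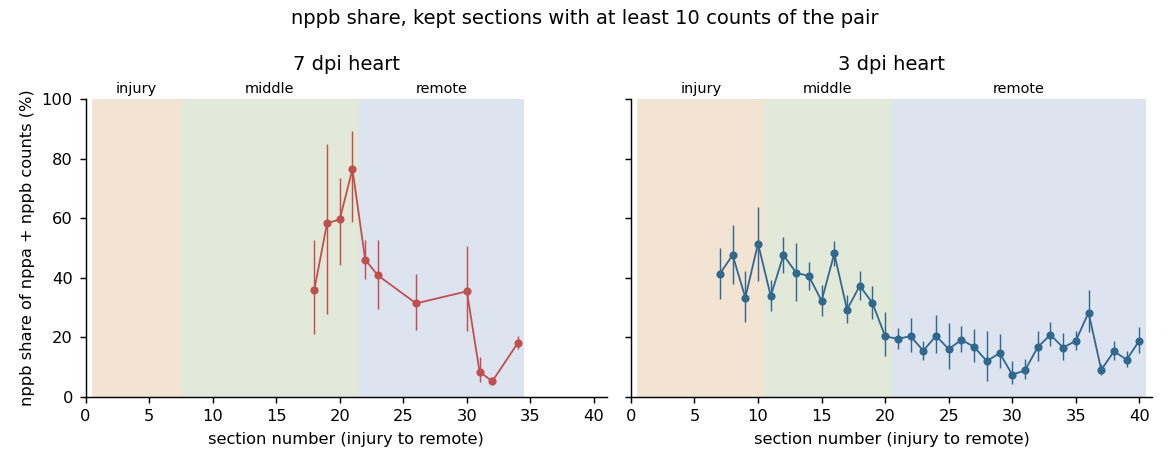
Share of nppb in nppa plus nppb counts (%) per kept section with at least 10 counts of the pair, 7 dpi heart left and 3 dpi heart right, with exact 95% binomial intervals. The share peaks at 76.5% in section 21 at 7 dpi, and lies between 20.3% and 51.5% in sections 7 to 20 at 3 dpi.

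Between the hearts, nppa and nppb were lower at 7 dpi over all kept sections. nppa stood at 860 CPM (2746 counts) at 7 dpi and 2087 CPM (8168 counts) at 3 dpi, a 2.43-fold lower level (2.32 to 2.54). nppb stood at 181 CPM (578 counts) at 7 dpi and 635 CPM (2485 counts) at 3 dpi, 3.51-fold lower (3.20 to 3.85). Of 7491 genes, 18.2% were at least 2-fold lower at 7 dpi and 25.8% at least 2-fold higher. myl7 differed in the same direction and further, at 2225 CPM in the 7 dpi heart and 11186 CPM in the 3 dpi heart, while the listed contractile genes had a median log2 difference of -1.46, between those of nppa (-1.28) and nppb (-1.81). Per myl7, nppa was 2.07-fold (1.97 to 2.18) and nppb 1.43-fold (1.30 to 1.58) higher at 7 dpi, beside 87.3% of genes higher by at least 2-fold. These directions rest on myl7: per cmlc1 the log2 differences were -0.01 for nppa and -0.54 for nppb, where per myl7 they were 1.05 and 0.52. Without section 34 the differences per myl7 were 1.66 for nppa and 1.09 for nppb.

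Sections rich in muscle were compared next. Muscle-rich sections, those with at least 30000 CPM of summed contractile genes without myl7, were sections 31, 32 and 34 at 7 dpi and sections 14 to 40 at 3 dpi. As given above, the contractile IDs summed were not the same in both hearts. The 2 sets were not equal in muscle: sections 31 and 32 at 7 dpi had 31204 and 31337 CPM of these genes, under all 27 sections at 3 dpi (38524 to 67235 CPM), and myl7 stood at 4947 CPM at 7 dpi and 12520 CPM at 3 dpi. There nppa stood at 1868 CPM at 7 dpi and 2217 CPM at 3 dpi, a ratio of 0.843 (0.805 to 0.882), with single sections from 1295 to 2985 CPM at 7 dpi inside the range of 1315 to 3360 CPM at 3 dpi save for section 34, just under it. Without section 34 the log2 ratio was 0.36 in place of -0.25, so no direction can be given for nppa in this tissue. nppb stood at 242 CPM at 7 dpi and 597 CPM at 3 dpi, 2.47-fold lower (2.19 to 2.79), as 21.9% of 5336 genes were by at least 2-fold, with 21.6% higher. Of the nppb values at 7 dpi, 163 and 197 CPM lay under the 3 dpi range of 203 to 1818 CPM and 285 CPM lay under its median of 423 CPM, and its log2 ratio was between -1.81 and -1.23 in all 9 alternatives. Per 100 myl7 counts nppb was at 4.89 at 7 dpi and 4.77 at 3 dpi, a ratio of 1.03 (0.906 to 1.16) whose interval includes equality, while nppa was 2.13-fold higher (2.02 to 2.25) at 37.8 at 7 dpi and 17.7 at 3 dpi. The all-gene median per myl7 was 1.29 on the log2 scale, beside 1.09 for nppa and 0.04 for nppb. A higher ratio than nppa was shown by 56.2% of genes, and a higher ratio than nppb by 83.9%. With cmlc1 in place of myl7 the log2 differences were -1.07 for nppb and -0.016 for nppa. The 3 dpi set includes sections 14 to 19 of the middle domain, in which nppb stood at 1026 to 1818 CPM. The highest kept 7 dpi section had 475 CPM. All muscle-rich sections at 7 dpi lie in the remote domain, so place differs between the sets. None of the 9 alternatives set remote sections alone against each other. Over the whole remote domains, nppb stood at 262 CPM at 7 dpi and 406 CPM at 3 dpi.

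A narrower range of muscle content, chosen after the data were seen, took kept sections with 10000 to 30000 CPM of those contractile genes. These were sections 23, 26 and 30 at 7 dpi and 7 to 13 at 3 dpi. The 7 dpi ones lie in the remote domain and the 3 dpi ones in the injury and middle domains, so place differs with the heart. nppa stood at 734 CPM at 7 dpi and 1362 CPM at 3 dpi, 1.86-fold lower (1.55 to 2.23), and nppb at 402 CPM at 7 dpi and 947 CPM at 3 dpi, 2.36-fold lower (1.85 to 3.02). Of 1527 genes, 27.1% were at least 2-fold lower. The ranges of these kept sections did not overlap for nppb, 371 to 475 CPM at 7 dpi against 698 to 1188 CPM at 3 dpi. In that direction 14.9% of genes showed this. For nppa they overlapped, 538 to 880 against 658 to 1845 CPM. The nppb separation rests on the depth limit. Left-out 7 dpi sections in the same contractile range ran from 288 CPM of nppb in section 28 to 2410 CPM in section 24. Per 100 myl7 counts the hearts were close here for nppa, at 44.9 at 7 dpi and 46.9 at 3 dpi, a ratio of 0.959 (0.767 to 1.195). For nppb the 7 dpi heart was lower, at 24.6 against 32.6 at 3 dpi, a ratio of 0.755 (0.571 to 0.991). On the log2 scale these were -0.06 and -0.40, beside an all-gene median of 0.55.

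**Figure D4:**
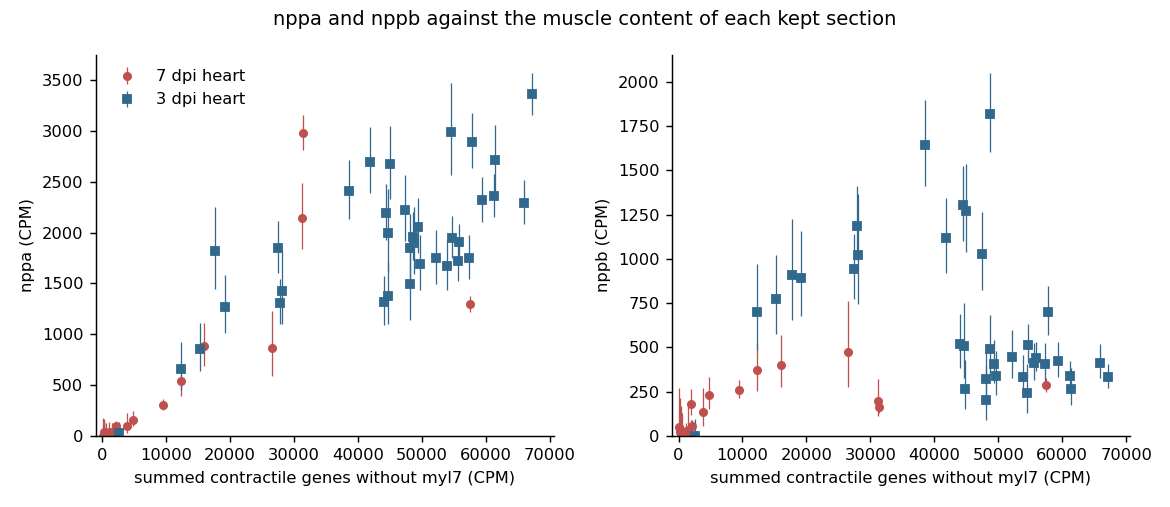
Level of nppa (left) and nppb (right) in CPM against the summed contractile genes without myl7 (CPM) for each kept section; circles are the 7 dpi heart and squares the 3 dpi heart, with exact 95% Poisson intervals. At 10000 to 30000 CPM of contractile genes the 7 dpi nppb values (371 to 475 CPM) lie under those at 3 dpi (698 to 1188 CPM), and above 30000 CPM the 3 dpi nppb values fall into a high set in sections 14 to 19 and a lower one in sections 20 to 40.

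nppal was counted in 1 heart and almost not in the other. At 7 dpi it had 237 counts (74.2 CPM), and at 3 dpi 2 counts (0.511 CPM, 0.0619 to 1.85), 1 each in sections 8 and 17. The 7 dpi level was 145-fold higher with a wide counting interval (39.8 to 1206), and 10 of 7491 genes had a higher ratio. At 7 dpi, nppal had 0 counts in the injury domain, 25 counts (22.9 CPM) in the middle and 212 counts (111 CPM) in the remote domain. The middle was 4.87-fold lower than the remote domain (3.21 to 7.70), with a log2 ratio of -2.24 that was -6.54 without section 34 and 0.21 at a depth limit of 40%, each with domains drawn anew, and the injury domain at least 7.42-fold lower at the floor of 3 counts. Its counts were 6 in section 10, 6 in section 18, 3 in section 19, 1 in section 20, 9 in section 21, 86 in section 22, 5 in section 23, 6 in section 26, 0 in section 30, 2 in section 31, 36 in section 32 and 77 in section 34. Section 22 thus held 40.6% of the remote counts and gave the highest level at 210 CPM, against 90.5 CPM in section 32 and 94.6 CPM in section 34, so the place of the nppal peak rests on 1 section. The 6 counts of section 10 came with 0 counts of nppa, nppb and myl7. Per 100 myl7 counts, nppal was highest in section 21 at 39.1, with 32.1 in section 22 and 0 to 5.17 in the 6 sections beyond it. The domain ratio of middle to remote tissue was 7.10 (4.32 to 11.3), or on the log2 scale 2.86, with 0.78 at a depth limit of 5%. That ratio is low among genes: 98.5% were at least 2-fold higher per myl7 in the middle. The all-gene median was 5.25 on the log2 scale, and 95.5% of genes had a higher ratio than nppal.

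The near absence of nppal at 3 dpi was set against the rest of the tables. Of 4603 genes with at least 50 counts at 7 dpi, 37 (0.804%) had at most 3 counts at 3 dpi, and of 4777 genes with at least 50 counts at 3 dpi, 28 (0.586%) had at most 3 at 7 dpi. Of 1307 genes with at least the nppal count at 7 dpi, 4 (0.306%) had no more counts than nppal at 3 dpi: nppal, MTHFD1L (279 at 7 dpi and 2 at 3 dpi), si:dkey-254e13.6 (247 and 2) and F13A1 (11294 and 2), the last named encoding a coagulation factor subunit. These 3 other genes were named after their values were seen. Summing the 2 related genes shifts little: nppal was 7.95% of nppa plus nppal at 7 dpi and 0.0245% at 3 dpi, and the sum stood at 934 CPM at 7 dpi and 2087 CPM at 3 dpi, a ratio of 0.447 (0.429 to 0.467). How reads that fit both nppa and nppal were counted, and whether both tables used 1 set of gene models, is not given in the sources used here. A difference in gene models or read assignment between the tables was not tested and cannot be told apart from a difference between the hearts. Both tables have a row for nppal, while 1663 IDs are listed at 7 dpi alone and 2024 at 3 dpi alone. A row with 2 counts at 3 dpi does not show which gene models or read assignment were used.

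The other genes of the pathway were thinly counted. Of 13 listed genes for receptors, processing enzymes and related peptides, 6 IDs were detected at 7 dpi and 7 at 3 dpi, and 3 had at least 50 counts in the comparisons. The guanylyl cyclase receptor gene npr1a had 32 counts at 7 dpi (10.02 CPM) and 13 at 3 dpi (3.32 CPM). The protease gene FURIN (ENSDARG00000062909), whose product cuts proproteins, was close in both, at 25.98 CPM at 7 dpi and 25.04 CPM at 3 dpi. PRKG1, a kinase that cyclic GMP activates, stood at 17.2 CPM at 7 dpi and 22.2 CPM at 3 dpi. At 3 dpi, 0 of the 3 measured genes were at least 2-fold different between middle and remote tissue, where 15.5% of all genes were higher and 2.98% lower. Between the hearts, 1 of the 3 was at least 2-fold higher at 7 dpi and 0 lower, beside 25.8% and 18.2% of all genes. The higher gene was ostn, which encodes osteocrin, a ligand of the natriuretic peptide clearance receptor in mammals. It stood at 44.8 CPM at 7 dpi (143 counts) and 13.03 CPM at 3 dpi (51 counts), and all 143 counts of the 7 dpi heart were in the remote domain, with 0 in the injury and middle domains.

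Transcription factors known to act on natriuretic peptide promoters were listed next. The 20 listed regulators matched 14 IDs at 3 dpi and 13 at 7 dpi. No ID was matched for gata4, gata6, nkx2.5, nkx2.7 or myocd, so these were not measured. In the 3 dpi heart 8 IDs had enough counts, both MEF2C IDs among them. Of these, 0 differed by at least 2-fold between middle and remote tissue, beside the same 15.5% and 2.98% of all genes. Their folds, on the log2(CPM + 1) scale, lay between 0.77 for MEF2D and 1.72 for MEF2C (ENSDARG00000009418). The median log2 difference was -0.055, with 0.32 over all genes. TBX20, a T-box factor, stood at 54.4 CPM in the middle and 66.5 CPM in the remote domain, and HAND2 at 174 and 150 CPM. Between the hearts, over all kept sections, 2 of 11 measured regulators were at least 2-fold higher at 7 dpi and 4 at least 2-fold lower, beside 25.8% and 18.2% of all genes. The higher ones were TBX2 (ENSDARG00000018025), a repressor of chamber genes, at 37.3 CPM at 7 dpi and 6.64 CPM at 3 dpi, and SRF, the serum response factor, at 30.7 CPM at 7 dpi and 7.92 CPM at 3 dpi. The lower ones were TBX20 at 12.8 CPM at 7 dpi and 59.5 CPM at 3 dpi, HAND2 at 54.2 and 157 CPM in the same order, MEF2A 2.26-fold lower and tbx5b 2.73-fold lower. In muscle-rich sections 0 of 8 were at least 2-fold higher at 7 dpi, beside 21.6% of all genes. There 2 were lower, TBX20 (2.84-fold) and MEF2D (2.46-fold), beside 21.9%. TBX2 and SRF had too few counts there, and HAND2, MEF2A and tbx5b were 1.96-fold, 1.62-fold and 1.91-fold lower. In the 7 dpi heart, 1 of 8 regulators was at least 2-fold higher in the middle than in the remote domain (SRF, 49.4 CPM in the middle and 23.1 CPM in the remote domain) and 3 were lower, beside 14% and 13.6% of all genes.

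Border and stress genes of heart muscle were listed as a further comparison. In the 3 dpi heart, 0 of 6 measured members were at least 2-fold higher in the middle than in the remote domain, where nppb was 3.11-fold higher; the nearest was MUSTN1, a small muscle and skeletal nuclear protein gene, at 1.82-fold. Among all genes 15.5% were higher. ANKRD1, with too few counts there to be among the 6, stood at 21.95 CPM (13.6 to 33.6) in the middle and 1.49 CPM (0.405 to 3.80) in the remote domain. The 14 listed genes matched 9 IDs at 3 dpi, without vmhc and without the intermediate filament gene DES, listed as desma. DES had a Pearson r of 0.859 with nppb across the 3 dpi sections, so the list leaves out a gene of similar profile. The ID named MYH6 (ENSDARG00000079564), also outside the list, had a higher r of 0.896. A separate myh6 ID was detected at 3 dpi, and the name MYH6 may stand for another zebrafish gene. Whether it is the listed vmhc could not be settled from the names. In the 7 dpi heart 7 of 8 were at least 2-fold lower in the middle, as the 3 peptide genes were, beside 13.6% of all genes. Between the hearts, over all kept sections, 2 of 8 were higher at 7 dpi (ANKRD1, a stretch-responsive ankyrin repeat gene, 6.71-fold, and XIRP2, 3.20-fold). Lower were 2 (MUSTN1, 9.76-fold, and FLNC, ENSDARG00000018566, 5.56-fold), beside 25.8% of all genes higher and 18.2% lower. The other FLNC ID, ENSDARG00000018820, was 1.39-fold lower. The separate ID mustn1a, with too few counts to be among the 8, went the other way from MUSTN1. It stood at 10.96 CPM (7.63 to 15.2) at 7 dpi and 2.04 CPM (0.882 to 4.03) at 3 dpi. Within the 7 dpi heart mustn1a had 22.9 CPM in the middle and 4.21 CPM in the remote domain. In muscle-rich sections 4 of 8 were higher: ANKRD1 (15.9-fold), XIRP2 (4.20-fold), NRAP (2.25-fold) and BAG3 (2.13-fold). The same 2 were lower there, MUSTN1 4.74-fold and FLNC 2.72-fold, beside 21.6% of all genes higher and 21.9% lower. Among 16 contractile genes of the 3 dpi heart, 2 were at least 2-fold higher in the middle per myl7, beside 71.4% of all genes, with a median log2 difference of 0.50 beside 2.73 for nppb, 1.03 for nppa and 1.42 over all genes.

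Likeness to the peptide genes was measured as Pearson r of log2(CPM + 10) across kept sections, among named genes with at least 200 counts; the sections share their library depth and muscle content, and r is given as a description. At 7 dpi (24 sections) nppa was most like the intermediate filament gene DES (0.955), the cardiac actin gene ACTC1 (0.947) and the endothelial gene vwf (0.939). nppb was most like MYH6 (ENSDARG00000079564), a myosin heavy chain gene (0.894), the troponin gene TNNI1 (0.878) and the endothelial cadherin gene cdh5 (0.866). nppal was most like fgfr4 (0.836), PALLD (0.774) and si:ch73-308b14.1 (0.764). At 3 dpi (35 sections) nppa was most like TNNI1 (0.936), hspb9l (0.912) and AQP8 (0.909), and nppb like MYH6 (0.896), MUSTN1 (0.864) and DES (0.859). After subtracting the myl7 profile, nppb at 3 dpi kept MYH6 (0.934), MUSTN1 (0.929) and DES (0.918) as its nearest, and nppa had DES (0.907), nt5c2a (0.886) and MUSTN1 (0.886). At 7 dpi the nearest after that subtraction were GAPDH (0.754), DES (0.688) and ppdpfa (0.679) for nppa, fam133b (0.869), atp2b4 (0.858) and cd34 (0.854) for nppb, and PAFAH1B3, tuba5 and DDX39A (all 0.937) for nppal. Subtracting myl7 can give unlike genes a common shape, since the myl7 profile enters every difference. The 3 genes named for nppal had 5205, 2106 and 282 counts in that order. Between the members, nppa and nppb had r of 0.850 at 7 dpi and 0.668 at 3 dpi; nppb with myl7 had 0.803 at 7 dpi and 0.240 at 3 dpi, and nppa with myl7 had 0.925 and 0.800 in the same order of days.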

How the data were processed

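Per the labels' protocols, RNA of single frozen sections was extracted with TRIzol, barcoded and amplified by CEL-seq and read on a NextSeq in 75 bp pairs. The aligner was BWA 0.6.2, per the submitters' processing notes. Which genome build, annotation, counting rule or molecular identifiers were used is not given in the sources used here. In each table the deposited values are raw whole-number counts per Ensembl ID and section, not normalized by the authors. Their unit is entered as other, because bare section numbers as column names could not be read by the automatic unit check; no value was negative or fractional when tested. Spike-in rows (44 at 7 dpi with 8631 counts, 19 at 3 dpi with 171) stayed out of totals.

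Sections were kept when their total was 20% or more of the heart's 75th percentile, 96.6% of counts at 7 dpi and 98.2% at 3 dpi; sections 4, 6, 9, 15, 24, 25, 27 to 29, 33 and 35 to 38 were left out at 7 dpi and 2 to 6 at 3 dpi. Domains came from a least-squares division, with at least 4 sections each, using the 2000 genes of highest mean outside the members and lists, as z-scores of log2(CPM + 10). Section numbers were taken to run from the injury outward, as the labels describe. Folds of the members are ratios of summed CPM; log2 ratios and folds of listed genes add 1 CPM, and list counts cover genes with at least 50 counts in the sections compared. Intervals are exact Poisson or binomial ones, and counts without molecular identifiers are not independent molecules. Python 3.11.15, numpy 2.4.6, pandas 2.3.3, scipy 1.17.1 and matplotlib 3.10.9 were used. Domain finding and ratios were tested on simulated Poisson counts with sharp steps. The real counts spread more between sections than that, so the simulation does not vouch for the boundaries or intervals here. Gene names paired 13135 IDs at 7 dpi and 13441 at 3 dpi; case was ignored, and a capital symbol also matched a listed gene without its final a or b, which can join paralogs.

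The members, the 3 gene lists and the 7 marker lists were chosen with earlier results of these data known. Named were the members, myl7, listed receptors, processing genes and regulators with at least 50 counts, and for each member the 3 genes of highest r; other genes are named where a count of a list turns on them. No sequence of the 3 genes is shown. There were 14 kinds of alternative planned and 3 added after seeing the data.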

Additional observations from a re-analysis of the deposited data

Results flagged for a closer look

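Sections left out for low totals also held peptide gene counts. In the 7 dpi heart 9 of 14 such sections held 134 counts of nppa, and 10 held 55 counts of nppb; section 36, beyond the last kept one, had 66 nppa counts among 15900 (4151 CPM, 3210 to 5281), above every kept section of either heart. For nppb, left-out sections 24, 25, 27 and 29 had 2410, 1466, 622 and 1039 CPM, above every kept section of the 7 dpi heart. nppal had 3 counts in the left-out 7 dpi sections. In the 3 dpi heart the 5 sections left out, 2 to 6, held 19 counts of nppa and 16 of nppb, of which section 6 had 9 each (605 CPM, 277 to 1148).

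The direction of nppb between middle and remote tissue differed between the hearts, with a log2 ratio of -1.86 at 7 dpi and 1.63 at 3 dpi. With 1 heart per day this difference was not tested, and the middle domain at 7 dpi held little muscle.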

How the results depend on the processing

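Of 255 alternative values of the members' log2 ratios, 163 were counted as within the interval of the main value. The other 92 lay outside it, 18 of these with the opposite sign. The 163 overstate stability. They include 9 each for nppa and nppal in injury over remote tissue at 7 dpi, where 0 counts left no interval to fall outside. Some others could not move, such as leaving out section 34 of the 7 dpi heart in 3 dpi comparisons. No paired analysis was possible because there was 1 heart per day. At 3 dpi the nppa middle-to-remote log2 ratio of -0.07 was -0.20 with a depth limit of 5%, 0.060 with 40%, -0.44 with median-of-ratios scaling, -0.16 with equal domains, 0.048 without its fullest section and -0.16 without 2 unnamed high-count IDs (added after seeing the data). For nppb the 1.63 became 1.26 with median-of-ratios scaling and 0.54 with equal domains, and the 2.73 per myl7 became 2.87 (5%), 2.58 (40%), 1.08 (equal domains), 2.38 (cmlc1) and 2.25 (contractile list). At 7 dpi the nppa ratio of -4.64 was -1.02 (5%), -2.84 (40%), -5.77 without section 34, -3.97 (equal domains) and -6.97 with earlier boundaries (added after seeing the data). The nppb ratio of -1.86 was 1.16 (5%), -0.23 (40%), -3.86 without section 34, -2.23 without its fullest section and -5.08 with earlier boundaries; per myl7 its 3.24 was 2.60 (5%), 2.75 without the fullest section and 2.52 with the contractile list. The nppal ratio of -2.24 was 0.21 with 40%. New domains are drawn when the depth limit changes or section 34 is left out.

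Between hearts, the nppa log2 ratio of -1.28 was -1.45 with median-of-ratios scaling, -1.55 without section 34, -1.83 without its fullest section and -1.46 without the unnamed IDs, and the nppb ratio of -1.81 was -1.98, -2.12, -2.01 and -1.99 in that order. In muscle-rich sections nppa (-0.25) was 0.36 without section 34, -0.62 without its fullest section, -0.46 without the unnamed IDs and -0.89 in sections of intermediate muscle, and nppb (-1.30) was -1.81, -1.68 and -1.56 under the first 3 of these. Per myl7, nppa over all sections (1.05) was -0.0091 with cmlc1, and in muscle-rich sections (1.09) -0.016 with cmlc1 and -0.060 in intermediate sections. The cause of these shifts was not tested.

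Genes at least 2-fold higher in the 3 dpi middle numbered 684, and 219 with median-of-ratios scaling, 137 with equal domains, 1325 at 20 counts and 204 at 200 counts; the 131 lower ones were 473, 31, 367 and 39 in that order and 85 with a pseudocount of 5 CPM. At 7 dpi the 617 higher were 349 without section 34, 1323 at 20 counts and 140 at 200, and the 602 lower were 1105 at 20 counts, 230 at 200 and 906 with earlier boundaries. Between hearts the 1930 higher and 1362 lower were 836 and 612 at 200 counts.

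Depth limits nppal most, since 13 of 24 kept sections at 7 dpi and 33 of 35 at 3 dpi had none; 0 counts, taken at the floor of 3 counts, allow up to 1.11 CPM in the 3 dpi remote domain and 15.03 CPM in the 7 dpi injury domain. 1 section can also carry a value: 34 and 32 hold most of the nppa at 7 dpi.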
